A study of Homo sapiens with 20 samples.

Results

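These results describe what 24 h of the higher dose of p53 induction did to the transcripts of an immortalized mammary epithelial cell line of human origin, B5/589, engineered with an inducible p53 transgene. The 4 arrays of cells given 5 ng of doxycycline for 24 h were compared with the 4 arrays of cells given 0 ng and collected at the same time, so that 8 of the series' 20 arrays are described. Doxycycline is the drug that switches the transgene on. The cells of both groups carry the transgene and grew in RPMI medium with fetal bovine serum, antibiotics and human EGF, and the medium was changed every 24 h with or without the drug. The labels state doses in ng without a volume and leave unsaid whether a group's 4 arrays stem from separate cultures. Each p-value therefore measures only how these samples spread, and that spread may be technical. All values come from 1 cell line, and no group of cells that lack the transgene but received the drug is analysed here.

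p53 is a transcription factor that is stabilised by DNA damage and other stress. It switches on inhibitors of the cell cycle, death receptors and effectors of apoptosis, and genes of DNA repair and metabolism. Its best known indirect action is repression: p21, the product of CDKN1A, blocks cyclin-dependent kinases, RB-family proteins then stay bound to E2F factors, and the genes that cells need to copy DNA and divide are shut down through E2F sites and through the CHR and CCAAT elements of mitotic promoters.

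Signals are log2 values, 1 per gene, taken from the brightest transcript cluster (the probes of 1 transcription unit) with exactly 1 gene symbol. A difference is the mean of the 5 ng arrays minus the mean of the 0 ng arrays, so that 1.00 is a doubling. The arrays were not equally bright as deposited. Their medians over all clusters were 5.08, 4.94, 4.99 and 5.28 at 0 ng and 4.90, 4.54, 4.78 and 4.99 at 5 ng. The median difference over all 18417 genes was -0.24 as deposited and 0.07 after the arrays were brought to 1 common distribution (quantile normalization). A difference is therefore given on both scales: a value in the sentence is as deposited and is followed by the quantile-normalized one in parentheses, and a pair in parentheses after a gene's name holds the deposited difference and then the quantile-normalized one. The words rose and fell are used only of genes that passed limma's moderated test in the same direction on both scales, at a Benjamini-Hochberg adjusted p under 0.05 over all genes. The files used here hold no detection call, so folds of genes with very low signals have no known floor. In bulk RNA, fewer cells with a transcript and less of it in each cell cannot be told apart.

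After induction, transcripts of DNA replication and division were lower, and those of many p53 targets, of LCE proteins of the skin's cornified envelope and of several desmosomal proteins were higher. The 833 genes that rose were 4.52% of all genes, both as deposited and on both scales. Falls came to 4333 genes (23.5%) as deposited, 3172 (17.2%) after quantile normalization and 3144 (17.1%) on both. After quantile normalization 3786 genes (20.6%) passed as higher, and rises made up 54.41% of the calls there against 16.12% as deposited. No gene passed in opposite directions on the 2 scales. On both scales 112 genes were down and 23 up at least 8-fold, and at a limit of 4-fold these counts were 254 and 70. Among the lists of genes described next, 0 members rose in those of E2F factors, cyclins, licensing, recombination, mitosis, the nuclear envelope, ribosome production, splicing, oxidative phosphorylation and mesenchymal markers. At an unadjusted p under 0.05 on both scales limma gave 0 rises in each of these too, except 1 in oxidative phosphorylation. In that list 1 member also rose when replicate 4 of 0 ng was left out. Only 4.52% of all genes rose, so 0 rises in a single list of this size is near that share. In the lists of the proteasome (34 genes), cytosolic ribosomal proteins (45), chaperonin and large heat shock proteins (24) and the S100 family (16) 0 members rose as well. At an unadjusted p under 0.05 on both scales limma gave 0, 0, 2 and 2 rises in these lists. After quantile normalization 9, 4, 3 and 7 of their members passed as higher, against 20.6% of all genes. In the chaperonin and large heat shock list 11 members fell, and with 1 array left out 4 to 12 fell.

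**Figure D1:**
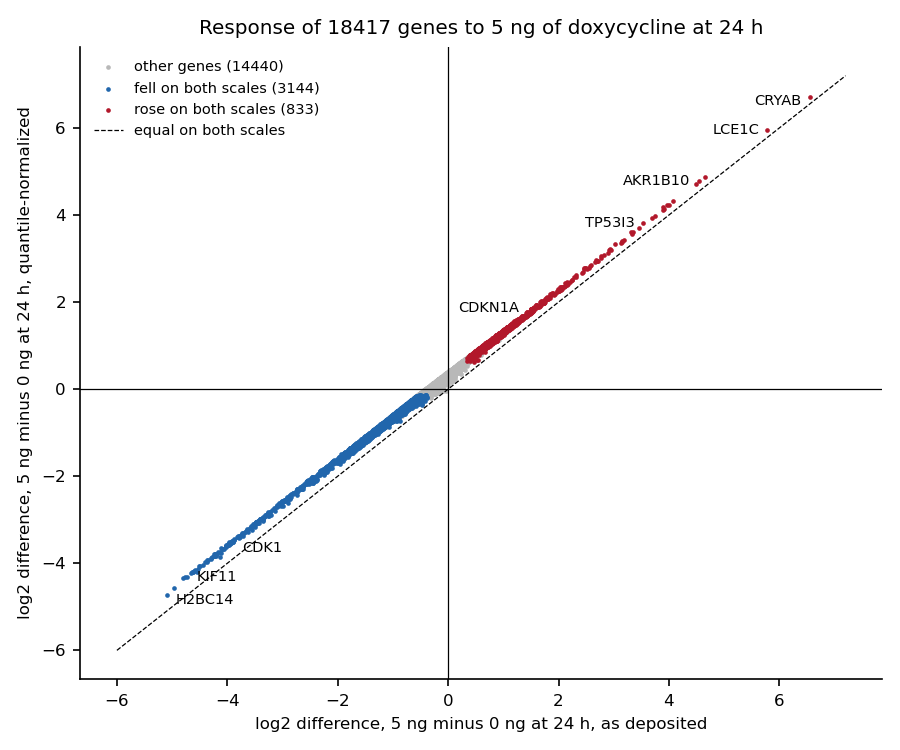
Log2 difference of each of 18417 genes between 5 ng and 0 ng at 24 h, as deposited (x axis) and after quantile normalization (y axis), with genes that rose on both scales in red and genes that fell on both in blue. Most points lie in a band above the dashed line of equality, and the 833 rises reach further from 0 in CRYAB and LCE1C than any fall does.

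Classical targets of p53 were higher in the cells with 5 ng. Of the 17 measured targets that act in cell cycle arrest, 10 rose and 1 fell, with a median difference of 0.68 (1.04), against 4.52% of all genes that rose and 17.1% that fell. CDKN1A had log2 signals of 8.58, 8.47, 8.43 and 8.99 in replicates 1 to 4 at 0 ng and 9.96, 10.10, 10.11 and 10.04 at 5 ng. The lowest induced array lay 0.97 above the highest uninduced one, and CDKN1A rose 2.70-fold, a log2 difference of 1.44 ± 0.14 (± SE here and below, 4 arrays against 4) (limma with Benjamini-Hochberg, adjusted p = 1.01e-07). ZMAT3, an RNA-binding zinc finger protein, rose by 1.19 (1.55), ZNF385A, a cofactor of p53, by 1.10 (1.45), TRIM22 by 1.06 (1.40), the kinase PLK3 by 0.92 (1.28) and SFN, the 14-3-3 sigma protein that holds back entry into mitosis, by 0.88 (1.10). E2F7, a repressor of E2F target genes, was the member that fell (-0.99, -0.58). GADD45A (0.42, 0.71), the phosphatase gene PPM1D (0.41, 0.78), PLK2 (-0.52, -0.16) and RPRM (-0.20, 0.07) did not pass as deposited.

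Among the 27 targets linked to apoptosis, 15 rose and 2 fell, with a median of 0.61 (0.97). TP53I3, a quinone oxidoreductase, read 8.05, 7.71, 7.90 and 8.18 at 0 ng and 11.42, 11.58, 11.52 and 11.44 at 5 ng. The arrays of both groups were tight and far apart, and the difference was 3.53 ± 0.14, which is 11.6-fold (limma adjusted p = 1.99e-13). TP53INP1, a stress protein that promotes p53 activity, rose by 2.66 (2.92), and PIDD1, the scaffold of a caspase-activating complex, by 1.70 (2.0). APAF1, the core of the apoptosome that activates caspases, read 7.70, 7.58, 7.12 and 7.80 at 0 ng and 9.19, 9.20, 9.19 and 9.35 at 5 ng. The groups did not overlap, and APAF1 rose 3.21-fold. The caspases CASP6 (1.34, 1.68), CASP10 (1.27, 1.54) and CASP1 (0.73, 1.06) rose too.

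The death receptor FAS read 8.73, 8.49, 8.20 and 8.86 at 0 ng and 9.60, 9.55, 9.51 and 9.80 at 5 ng, a rise of 1.05 ± 0.16 (limma adjusted p = 3.83e-05) with no overlap. BAX, which opens the outer mitochondrial membrane, read 8.75, 8.75, 8.86 and 9.24 at 0 ng and 9.09, 9.30, 9.32 and 9.25 at 5 ng. Replicate 4 of 0 ng lay among the induced arrays, and the difference of 0.34 ± 0.15 did not pass as deposited (limma adjusted p = 0.1039), while the quantile-normalized 0.69 did (adjusted p = 1.43e-06). BBC3, the BH3-only protein PUMA, read 5.82, 6.0, 5.98 and 6.22 at 0 ng and 6.07, 5.67, 6.20 and 6.0 at 5 ng. Its groups overlapped widely, with a difference of -0.02 ± 0.18 as deposited and 0.30 after quantile normalization (limma adjusted p = 0.9495 and 0.0329). PMAIP1, the BH3-only protein NOXA, read 8.90, 8.40, 8.21 and 8.82 at 0 ng and 8.76, 8.67, 8.61 and 8.77 at 5 ng, again with overlap, and differed by 0.12 ± 0.17 as deposited (0.49). The death receptor TNFRSF10B differed by 0.37 (0.68) and did not pass as deposited (limma adjusted p = 0.0794). SIVA1 (-0.71, -0.33) and STEAP3 (-0.65, -0.26) fell.

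Targets in repair, redox and metabolism numbered 31, of which 20 rose and 1 fell, with a median of 0.59 (0.94). ACER2, a ceramidase, rose by 2.21 (2.47). SESN1, a sestrin that restrains mTORC1, read 7.17, 6.82, 6.67 and 7.50 at 0 ng and 8.70, 8.78, 8.79 and 9.09 at 5 ng and rose 3.48-fold. GDF15, a secreted stress factor, read 10.55, 10.08, 9.92 and 10.58 at 0 ng and 11.97, 12.08, 12.06 and 11.97 at 5 ng and rose 3.34-fold. For both genes each induced array was above each uninduced one. CYFIP2 (1.59, 1.93), TP53I11 (1.52, 1.77), CMBL (1.51, 1.83) and the fructose bisphosphatase TIGAR (1.03, 1.37) followed, and FANCC, a Fanconi anaemia core subunit, fell (-1.97, -1.58).

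Of the 21 genes that control p53 or are related to it, 2 rose and 7 fell. MDM2, the ubiquitin ligase that degrades p53, read 12.15, 12.05, 11.72 and 12.42 at 0 ng and 12.46, 12.57, 12.61 and 12.60 at 5 ng. The groups did not overlap, though replicate 4 of 0 ng came within 0.04 of the lowest induced array, and MDM2 rose by 0.48 ± 0.15 (limma adjusted p = 0.0174, quantile-normalized 0.62). Without replicate 3 of 0 ng its difference was 0.35 and did not pass, which left 1 rise in the list. The p53 relative TP73 rose by 1.41 (1.66). The damage kinases CHEK1 (-2.81, -2.38) and ATR (-0.79, -0.40), and CDKN2A, whose ARF product inhibits MDM2 (-0.93, -0.55), fell.

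**Figure D2:**
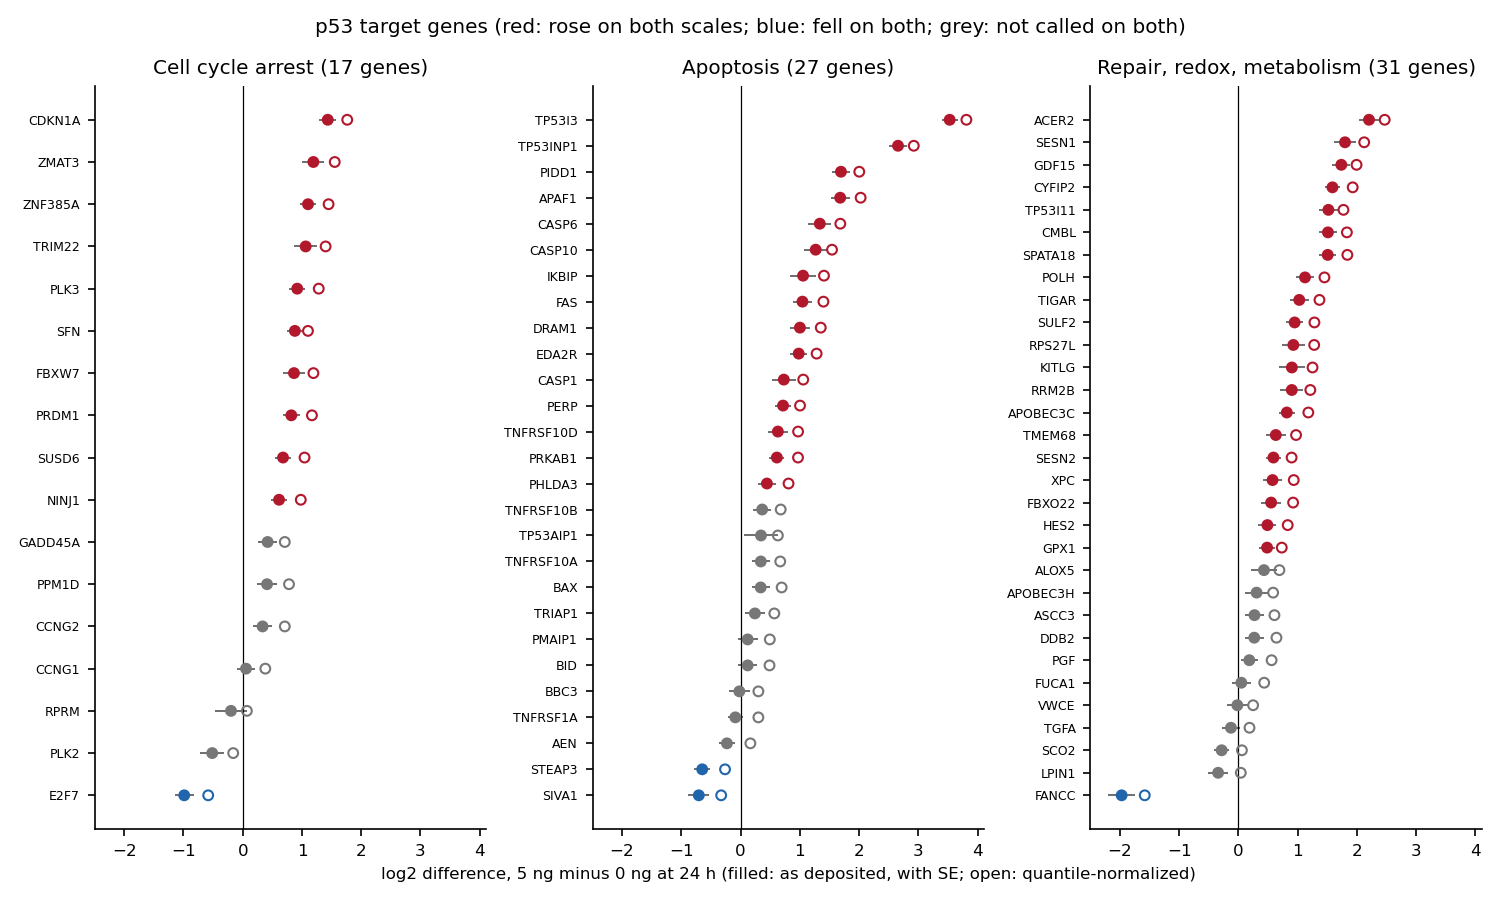
Log2 difference between 5 ng and 0 ng at 24 h for each measured p53 target in 3 lists, as deposited (filled, with the SE of the model, n = 4 arrays in each group) and after quantile normalization (open). Targets that rose on both scales are red, and BAX, BBC3, PMAIP1 and GADD45A are among the grey genes nearer to 0.

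Transcription factors that act on the cell cycle genes, among them the repressor E2F7 named above, were lower after induction. All 11 measured E2F and MYB-MuvB factors fell, with a median of -1.47 (-1.10), against 17.1% of all genes. With 1 array left out, 10 or 11 of them fell. FOXM1, the activator of G2 and M phase genes, fell 11.8-fold, and MYBL2, the subunit that turns the MuvB complex into an activator, fell 10.4-fold. E2F1, an activator of S phase genes, read 6.61, 6.98, 7.09 and 7.13 at 0 ng and 5.85, 4.46, 5.19 and 5.60 at 5 ng. The uninduced arrays were close together, the induced ones spread over 1.39 log2 units below them, and E2F1 fell by 1.68 as deposited (SE 0.24, limma adjusted p = 1.67e-05). The RB relative RBL1 (-2.50, -2.09) and LIN9 of the MuvB core (-2.32, -1.95) fell, whereas RB1 differed by 0.04 (0.41) and did not pass as deposited. CDKN1A alone rose among 17 CDK inhibitors and RB-pathway genes, 9 of which fell, and CDKN1B, the p27 inhibitor, fell (-0.95, -0.55).

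The windows of 250 bases before the transcription start of 4 genes that fell are printed to show the elements named above. They stand for the mitotic motor genes (KIF11), the mitotic kinases (PLK1), the E2F factors (E2F1) and the replication-dependent histones (H2BC14, the largest fall of all genes). Sequences are RefSeq's for GRCh38.p14, 5' to 3' on the strand of the gene, which is the plus strand for KIF11, PLK1 and H2BC14 and the minus strand for E2F1, at chr10:92592880-92593129 (KIF11), chr16:23678639-23678888 (PLK1), chr20:33686386-33686635 (E2F1) and chr6:27814772-27815021 (H2BC14). Capitals mark the CHR element TTTGAA, the CCAAT box and the E2F sites TTTCCCGC, TTTCGCGC, TTTGCCGC and TTTGGCGC, on either strand.
KIF11: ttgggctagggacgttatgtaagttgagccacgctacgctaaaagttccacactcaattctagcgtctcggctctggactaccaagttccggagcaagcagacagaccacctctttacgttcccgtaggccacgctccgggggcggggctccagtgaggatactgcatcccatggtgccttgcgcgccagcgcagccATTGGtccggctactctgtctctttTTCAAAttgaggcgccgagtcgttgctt
PLK1: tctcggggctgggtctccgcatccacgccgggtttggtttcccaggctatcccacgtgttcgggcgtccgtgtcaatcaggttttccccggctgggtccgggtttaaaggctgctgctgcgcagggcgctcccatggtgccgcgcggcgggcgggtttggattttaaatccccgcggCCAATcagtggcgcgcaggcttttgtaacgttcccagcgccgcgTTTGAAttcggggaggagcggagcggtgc
E2F1: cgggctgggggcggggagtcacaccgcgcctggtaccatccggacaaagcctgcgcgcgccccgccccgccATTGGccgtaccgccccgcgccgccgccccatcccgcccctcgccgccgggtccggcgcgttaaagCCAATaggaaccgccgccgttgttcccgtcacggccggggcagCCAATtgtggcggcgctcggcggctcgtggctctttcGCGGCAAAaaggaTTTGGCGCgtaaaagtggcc
H2BC14: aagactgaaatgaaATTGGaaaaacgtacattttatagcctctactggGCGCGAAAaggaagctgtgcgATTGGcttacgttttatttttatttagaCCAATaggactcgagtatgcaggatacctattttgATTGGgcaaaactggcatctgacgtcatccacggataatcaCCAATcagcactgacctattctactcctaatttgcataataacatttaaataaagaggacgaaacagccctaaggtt

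These letters were also counted in 1 window for each of the 14237 measured genes that had one, with each motif counted on its own so that matches could overlap. The CCAAT letters or their reverse complement stood in 34.4% of the windows of all measured genes and in 67 of 95 windows (70.5%) of genes that fell at least 8-fold. They were in 40 of 46 windows of replication-dependent histones (87.0%), in 24 of 31 of mitotic kinesin and cytokinesis genes (77.4%), and in 15 of 57 of genes that rose at least 4-fold (26.3%). TTTGAA stood in 10.6% of all windows, in 17 of 31 of the mitotic kinesin and cytokinesis genes (54.8%), in 7 of 16 of the checkpoint and mitotic kinase genes (43.8%), and in 4 of 25 of the centromere and kinetochore genes (16%). It stood in 13 of 46 of the replication-dependent histones (28.3%), 1 of 31 of the replication fork genes (3.23%), 0 of 24 of the origin licensing genes and 9 of 57 of the genes that rose at least 4-fold (15.8%). The E2F letters stood in 3.75% of all windows, in 6 of 24 of origin licensing genes (25.0%), in 8 of 31 of replication fork genes (25.8%) and in 0 of 16 of the checkpoint and mitotic kinases. A paired p53 half-site core was searched as CWWG, any 6 bases and CWWG again, where W is A or T. It was found in 3.18% of all windows and in 0 of 14, 2 of 20 and 2 of 23 windows of the arrest, apoptosis and repair targets. Among genes that rose at least 4-fold it stood in 3 of 57 (5.26%). Sites outside these windows were not searched, so the counts do not show whether a gene has a p53 site elsewhere. A match is a run of letters and not a measured binding site.

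Of 25 cyclins, their kinases and partners 16 fell, with a median of -2.48 (-2.09). CDK1, the main kinase of mitosis, read 8.82, 8.59, 8.21 and 9.17 at 0 ng and 4.75, 4.83, 4.52 and 5.16 at 5 ng. The nearest arrays of the groups lay 3.05 log2 units apart, and CDK1 fell 14.8-fold (limma adjusted p = 1.03e-10, quantile-normalized difference -3.45). Cyclin CCNA2 fell 19.7-fold, CCNE2 17.3-fold and CCNB1 12.4-fold. The D-type cyclins CCND1 (-0.24, -0.05) and CCND3 (-0.39, 0.01) and their kinase CDK6 (-0.48, -0.13) did not pass on both scales. The proliferation marker MKI67 fell 16.8-fold (-4.07, -3.67).

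DNA replication genes were lower at the steps of licensing, unwinding and synthesis. Of 28 genes that license and fire origins, 27 fell, with a median of -2.73 (-2.33), and ORC4, a subunit of the origin recognition complex, was the exception (0.28, 0.64, not passed as deposited). CDC6, which loads the MCM helicase, read 10.01, 10.09, 9.80 and 10.41 at 0 ng and 5.93, 6.35, 6.07 and 6.34 at 5 ng. No array of either group came near the other, and CDC6 fell 15-fold. Of 36 fork proteins and polymerases, 33 fell, with a median of -2.41 (-2.0). The checkpoint adaptor CLSPN (-4.24, -3.80) and POLE2, a subunit of polymerase epsilon (-4.20, -3.79), changed most, and POLD4, the small subunit of polymerase delta, rose (0.60, 0.95).

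The enzymes of deoxynucleotide supply split at ribonucleotide reductase. RRM2, the small subunit used in S phase, read 9.69, 9.57, 9.31 and 9.82 at 0 ng and 6.30, 6.07, 6.19 and 6.55 at 5 ng and fell 9.99-fold. RRM2B, the small subunit encoded by a p53 target gene, read 9.40, 9.30, 8.69 and 9.76 at 0 ng and 10.15, 10.18, 10.14 and 10.29 at 5 ng and rose 1.87-fold (limma adjusted p = 0.0012). Neither gene had overlapping groups. Of the 14 genes of this list, 1 rose and 9 fell, with DUT, which clears dUTP, at -2.76 (-2.34) and thymidine kinase TK1 at -1.80 (-1.43).

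Replication-dependent histones, whose transcripts are made in S phase, fell in 43 of 51 genes, with a median of -2.65 (-2.25). H2BC14 read 11.08, 11.38, 11.23 and 11.66 at 0 ng and 6.36, 6.70, 5.79 and 6.14 at 5 ng and fell 34.1-fold (limma adjusted p = 3.65e-12). H3C2 (-4.96, -4.57), H3C1 (-4.45, -4.03) and H2AC4 (-4.25, -3.84) were also among the largest falls of the list. H2BC21 went the other way, with 7.42, 6.89, 7.27 and 7.75 at 0 ng and 8.30, 7.96, 8.08 and 8.20 at 5 ng, without overlap, and rose by 0.80 ± 0.18 (limma adjusted p = 0.0022). H2BC12 rose as well (0.74, 1.11), but its groups overlapped as deposited, and it did not pass when uninduced array 2 or 3, or induced array 1 or 4, was left out (differences from 0.59 to 0.88 over all 8 such fits). The histone genes are near-identical copies, so signals of 1 member can include others. H2AX, the histone that marks broken DNA when phosphorylated, was not in this list and fell 4.63-fold.

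Much of the machinery of DNA repair was lower as well. Of 32 genes of homologous recombination and the Fanconi pathway, 29 fell, with a median of -2.14 (-1.74). XRCC2, a protein of homologous recombination, read 8.33, 8.33, 7.92 and 8.79 at 0 ng and 3.73, 3.56, 3.50 and 4.0 at 5 ng. The nearest arrays were 3.92 log2 units apart and XRCC2 fell 25.0-fold. RAD51AP1 (-4.50, -4.07), the nuclease EXO1 (-4.07, -3.67) and the helicase BLM (-3.79, -3.38) fell too, while RAD51C (-0.18, 0.22) and SLX4 (-0.27, 0.04) did not pass as deposited.

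Repair that does not need a sister chromatid was divided. In nucleotide and base excision repair 9 of 23 genes fell, led by the glycosylases NEIL3 (-3.91, -3.49) and UNG (-3.03, -2.61), and XPC, the damage sensor of nucleotide excision repair, rose (0.58, 0.94). Without replicate 1 or 4 of 0 ng this list held 2 rises. In end joining and translesion synthesis 9 of 16 fell, with POLQ, the polymerase of microhomology joining, at -3.28 (-2.88). POLH, the polymerase that copies past ultraviolet damage and a p53 target, read 8.94, 8.80, 8.49 and 9.25 at 0 ng and 9.87, 10.01, 9.99 and 10.11 at 5 ng and rose 2.18-fold (limma adjusted p = 1.61e-05).

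The kinetochore, checkpoint and kinesin lists had the lowest medians of the 64 lists examined. All 31 centromere and kinetochore genes fell, with a median of -2.91 (-2.52), NUF2 (-4.65, -4.23) and CENPF (-4.37, -3.96) most. Of 24 spindle checkpoint and mitotic kinase genes 20 fell, with a median of -3.41 (-2.98). PLK1, the kinase whose promoter is printed above, read 9.94, 10.03, 10.05 and 10.43 at 0 ng and 5.70, 6.09, 5.99 and 5.74 at 5 ng and fell 18.8-fold, with 3.85 between the nearest arrays. The checkpoint kinases TTK (-4.63, -4.20) and BUB1 (-4.13, -3.73) fell, and the APC/C activator FZR1 (-0.14, 0.25), which works in G1, and the checkpoint protein MAD1L1 (-0.23, 0.15) did not pass as deposited.

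Of 33 kinesin and cytokinesis genes 31 fell, with a median of -3.45 (-3.04). KIF11, the motor that pushes the spindle poles apart, read 8.77, 8.62, 8.03 and 8.96 at 0 ng and 3.48, 3.97, 3.72 and 4.17 at 5 ng and fell 27.1-fold (limma adjusted p = 9.68e-12). The transport kinesin KIF1C, which has no part in the spindle, differed by 0.01 (0.37) and did not pass as deposited. Cohesin and condensin genes fell in 23 of 28, with SGO1, the protector of centromeric cohesion, at -4.62 (-4.20) and TOP2A, the topoisomerase of dividing cells, at -4.03 (-3.63). The beta isoform TOP2B differed by -0.10 (0.29) and did not pass as deposited. Centriole genes fell in 13 of 16, led by PLK4 (-4.80, -4.34) and STIL (-4.09, -3.67).

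Nuclear envelope genes were lower too, with 25 of 29 lamina and pore genes falling. LMNB1, lamin B1, read 8.92, 8.93, 8.64 and 9.30 at 0 ng and 4.21, 4.93, 4.77 and 5.01 at 5 ng and fell 18.6-fold (limma adjusted p = 6.86e-11). LMNB2 fell (-1.93, -1.54), and LMNA, the A-type lamin of non-dividing and dividing cells, differed by -0.34 (0.03) and did not pass after quantile normalization (limma adjusted p = 0.8508).

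**Figure D3:**
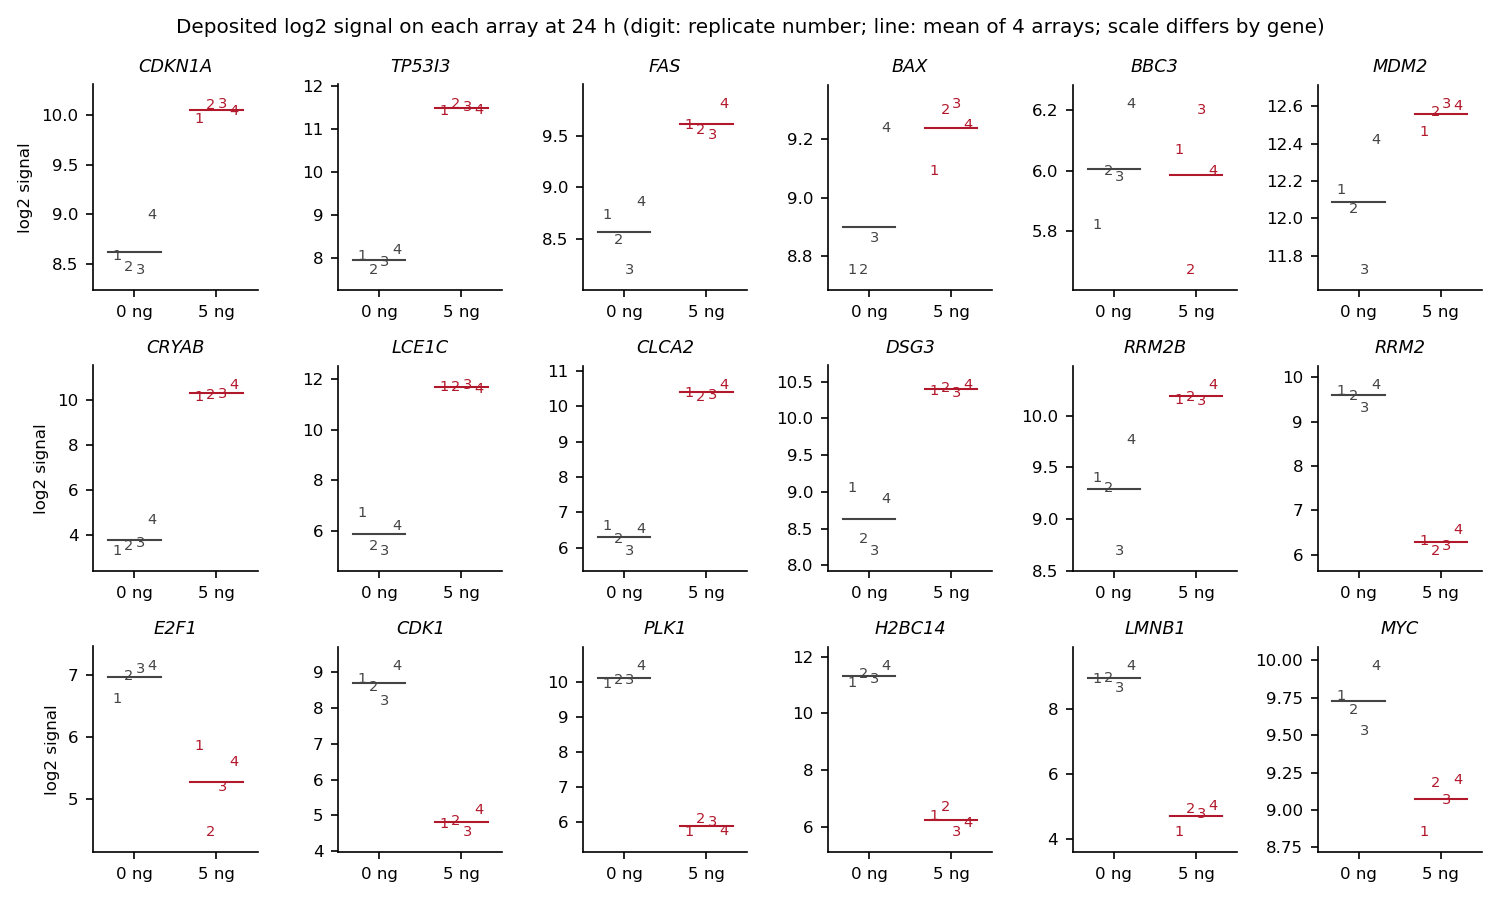
Deposited log2 signal of 18 genes on each of the 8 arrays, 0 ng in grey and 5 ng in red, with the replicate number as the symbol and the mean of 4 arrays as a line; the y axis differs by gene. BAX and BBC3 have overlapping groups, and the other 16 genes do not.

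Genes of cell growth were lower, with list medians nearer to that of all genes. Of 32 ribosome biogenesis factors 30 fell, with a median of -0.93 (-0.57). LYAR, a nucleolar factor, read 9.73, 9.70, 9.53 and 10.14 at 0 ng and 7.99, 8.18, 7.97 and 8.45 at 5 ng, with no overlap, and fell 3.09-fold. BRIX1 (-1.37, -1.04) and the pseudouridine synthase DKC1 (-1.31, -0.94) followed. RNA polymerase I and III genes fell in 11 of 24, mitochondrial ribosomal proteins in 25 of 50 and core spliceosome proteins in 21 of 35.

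The proteins of the cytosolic ribosome themselves had a median of -0.26 (0.00) over 45 genes, close to that of all genes. Only RPL32 fell (-0.81, -0.45), but 0 members fell without uninduced array 2 or 4 or induced array 1, and 2 fell without uninduced array 3 or induced array 2, while RPL32 was replaced by another member without induced array 4. MYC, the factor that drives ribosome production, read 9.76, 9.67, 9.53 and 9.96 at 0 ng and 8.85, 9.18, 9.07 and 9.20 at 5 ng. Its groups did not overlap and it fell by 0.66 as deposited (SE 0.14, -0.30 after quantile normalization, limma adjusted p = 0.0013). With each array centred on its median its difference was -0.39 and did not pass (limma adjusted p = 0.0878). CAD, the first enzyme of pyrimidine synthesis and a MYC target, fell (-1.38, -0.98), and MXD4, an antagonist of MYC, rose (0.57, 0.87). Oxidative phosphorylation genes had a median of -0.33 (0.01), with 6 of 49 falling, a smaller share than the 17.1% of all genes.

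**Figure D4:**
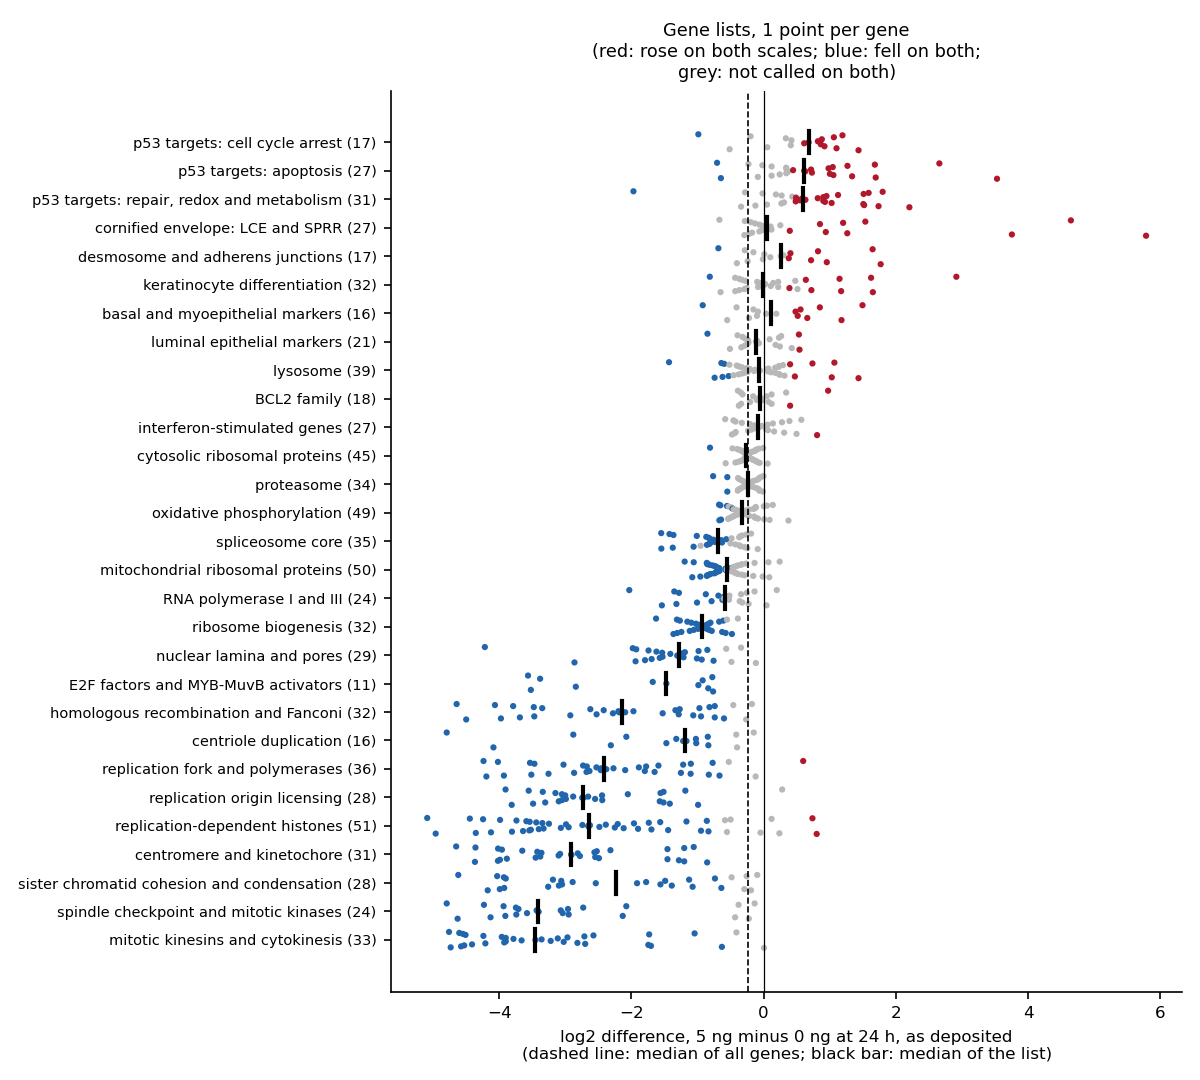
Deposited log2 difference between 5 ng and 0 ng at 24 h for each gene of 29 lists, with the list's median as a black bar and the median of all genes, -0.24, as a dashed line. Replication and mitosis lists lie far to the left, cytosolic ribosomal proteins and the proteasome lie at the dashed line, and most p53 targets and 9 LCE genes lie to the right.

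The largest rises were in genes outside the cell cycle. CRYAB, the small heat shock protein alpha B-crystallin, read 3.26, 3.52, 3.65 and 4.64 at 0 ng and 10.14, 10.22, 10.27 and 10.65 at 5 ng. The lowest induced array was 5.50 log2 units above the highest uninduced one, and CRYAB rose 93.9-fold (limma adjusted p = 1.99e-13). Among 7 small heat shock proteins HSPB8 also rose (1.29, 1.56), and HSPB1 (0.12, 0.33) did not pass as deposited. AKR1B10, an aldo-keto reductase, read 2.99, 1.93, 2.31 and 2.60 at 0 ng and 7.17, 6.78, 6.94 and 7.10 at 5 ng and rose 23.3-fold. CLCA2, a membrane protein of stratified epithelia and a p53 target, read 6.60, 6.23, 5.89 and 6.53 at 0 ng and 10.37, 10.27, 10.33 and 10.59 at 5 ng and rose 16.9-fold. The nearest arrays of the groups were 3.79 apart for AKR1B10 and 3.67 apart for CLCA2.

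The other genes among the 20 largest rises came from many kinds of protein. PALMD, a paralemmin-related protein, rose by 4.49 (4.72), and BLNK, an adaptor of B cell receptor signalling, by 4.01 (4.24). PTPN22, a tyrosine phosphatase of lymphocytes, rose by 3.89 (4.18) from the lowest signals of this set, -0.65, 0.54, 0.84 and 1.72 at 0 ng, where the array values spread over 2.37 log2 units. GDF9, a growth factor of the oocyte, rose by 3.69 (3.93), the phospholipase PLA2G10 by 3.35 (3.62), the adhesion molecule CEACAM1 by 3.33 (3.56) and the phospholipid transfer protein PLTP by 3.32 (3.61). C2orf66, NSG1, FAM13C, PLEKHG1 and DNAI3 completed the set, with differences from 3.18 (DNAI3) to 3.97 (C2orf66).

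Genes of the skin barrier rose in part. Of 27 genes of the epidermal cluster that encode cornified envelope proteins, 9 rose, all of them LCE genes. LCE1C read 6.72, 5.42, 5.20 and 6.20 at 0 ng and 11.67, 11.67, 11.74 and 11.60 at 5 ng. The induced arrays lay within 0.14 of each other, the uninduced ones spread over 1.52 log2 units, and LCE1C rose 55.1-fold (limma adjusted p = 4.72e-13). LCE1B (4.65, 4.88), LCE1F (3.76, 3.98), LCE1A (1.54, 1.87) and LCE3D (1.27, 1.60) followed. The small proline-rich genes SPRR2A (-0.67, -0.32), SPRR2B (-0.29, 0.02) and SPRR4 (-0.29, 0.00) did not pass on both scales. LCE1 genes are close copies of each other, so that their signals may not be separate.

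Among 32 other keratinocyte differentiation genes, 8 rose and 1 fell. ABCA12, the lipid transporter of the skin barrier, read 7.10, 6.50, 6.35 and 7.13 at 0 ng and 9.69, 9.65, 9.61 and 9.79 at 5 ng, without overlap, and rose 7.54-fold. The transcription factors ZNF750 (1.65, 1.91) and GRHL3 (1.17, 1.45), the lipoxygenase ALOX12B (1.15, 1.40) and filaggrin, FLG (1.63, 1.89), rose, KLF4 fell (-0.82, -0.46), and involucrin, IVL (0.51, 0.84), did not pass as deposited.

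Several desmosomal genes were higher. Of 17 genes of desmosomes, adherens and tight junctions 7 rose and 1 fell. DSG3, a desmosomal cadherin of basal keratinocytes, read 9.05, 8.36, 8.19 and 8.91 at 0 ng and 10.38, 10.41, 10.35 and 10.45 at 5 ng and rose 3.41-fold (limma adjusted p = 5.41e-08). NECTIN4 (1.65, 1.90), PKP1 (0.96, 1.32), DSC3 (0.82, 1.14) and PERP (0.72, 1.00), a desmosomal protein and p53 target, rose, and the tight junction protein CLDN1 fell (-0.69, -0.44). The protease inhibitors TIMP1 (0.89, 1.12) and SERPINB5 (0.98, 1.29) and the plasminogen activator PLAT (1.45, 1.75) rose, and MMP3 fell (-1.53, -1.15).

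Markers of the labelled cell type were measured in both groups. Among 16 basal and myoepithelial markers, 7 rose and 1 fell. KRT5, a keratin of basal epithelium, read 11.70, 11.64, 11.64 and 12.00 at 0 ng and 12.28, 12.48, 12.49 and 12.37 at 5 ng and rose by 0.66 ± 0.13 with no overlap. TRIM29 (1.50, 1.83), the myosin kinase MYLK (1.18, 1.44), smooth muscle actin ACTA2 (0.85, 1.21) and KRT14 (0.56, 0.79) rose. The contractile markers TAGLN, CNN1 and MYH11 of the same list had overlapping groups as deposited, as did EGFR, ITGA6, CDH3 and OXTR. The median difference of the list was 0.12 (0.39), and its deposited differences ranged from -0.92 to 1.50. The 1 fall of this list did not pass without replicate 2 of 5 ng. Among 21 luminal markers 2 rose and 1 fell, against 4.52% and 17.1% of all genes, with a median of -0.118 (0.175). With 1 array left out, 2 rose only without replicate 4 of 0 ng, and otherwise 1 rose. KRT8 rose (0.53, 0.67). EPCAM read 11.22, 11, 10.88 and 11.62 at 0 ng and 10.18, 10.25, 10.18 and 10.71 at 5 ng, and fell (-0.85, -0.56). Receptors ESR1 (-0.34, -0.04) and PGR (-0.40, -0.07) did not pass, with 2.73 the highest ESR1 signal on the 8 arrays.

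Of 23 mesenchymal markers 3 fell, a smaller share than the 17.1% of all genes, with a list median of -0.35 (-0.03). They were the cadherin CDH2 (-1.16, -0.76) and the transcription factors TWIST2 (-0.65, -0.26) and SNAI2 (-0.64, -0.27). SNAI2 did not pass with each array centred on its median (-0.37), nor did SNAI2 (-0.27) and TWIST2 (-0.27) when the 8 arrays alone were quantile-normalized. The quantile-normalized difference of TWIST2 also did not pass without uninduced array 1 (-0.22) or 3 (-0.21) or induced array 2 (-0.24) or 3 (-0.24). Of 16 immune and endothelial markers 1 rose and 1 fell. ITGAM, an integrin of myeloid cells, read 5.28, 5.01, 4.93 and 4.90 at 0 ng and 6.11, 6.18, 6.13 and 6.11 at 5 ng and rose 2.15-fold, and CD14 fell (-1.43, -1.06). The defining leukocyte marker PTPRC had log2 signals below 0 on all 8 arrays (-0.44, -0.34, -0.33 and -0.26 at 0 ng and -0.62, -0.97, -0.37 and -0.86 at 5 ng). The mean signal of the immune and endothelial list ranged from 3.74 to 3.99 over the 0 ng arrays and from 3.36 to 3.91 over the 5 ng arrays. Without replicate 3 of 0 ng, 2 of these markers fell.

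Stress, lysosomal and metabolic lists were split. Of 24 genes of the unfolded protein and integrated stress responses 6 rose and 5 fell, against 4.52% of all genes that rose and 17.1% that fell. The falls were near that share. PHGDH, the first enzyme of serine synthesis, read 10.00, 9.68, 9.69 and 9.97 at 0 ng and 8.01, 8.23, 8.19 and 7.89 at 5 ng and fell 3.38-fold, and ASNS (-0.92, -0.53), TRIB3 (-0.92, -0.53) and their activator ATF4 (-0.58, -0.30) fell with it, while CHAC1 (0.95, 1.24), ATF3 (0.88, 1.22) and HERPUD1 (0.67, 0.99) rose. ATF4 did not pass with each array centred on its median (-0.31), nor did ASNS after quantile normalization without uninduced array 1 (-0.40) or induced array 4 (-0.40). Among 35 autophagy genes 3 rose and 6 fell. DRAM1 (1.00, 1.35), a lysosomal p53 target, and the cargo receptor SQSTM1 (0.61, 0.86) rose, and ATG3 (-0.77, -0.42) and ATG5 (-0.60, -0.22), of the conjugation machinery, fell. Without replicate 2 of 5 ng the quantile-normalized difference of ATG5 was -0.18 and did not pass. Among 39 lysosomal genes 6 rose and 6 fell, and with 1 array left out 4 to 6 rose and 3 to 6 fell. The lysosomal hydrolases IDUA (1.44, 1.69), MAN2B1 (1.07, 1.42) and GAA (1.03, 1.36) rose and GLA fell (-1.43, -1.04).

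Sterol and fatty acid synthesis held 11 falls and 1 rise among 26 genes. The desaturases FADS1 (-1.18, -0.78) and SCD (-1.12, -0.71) and the sterol isomerase EBP (-1.28, -0.91) fell. TM7SF2, a sterol reductase of the same pathway, read 7.30, 7.18, 7.11 and 7.54 at 0 ng and 9.96, 10.05, 10.14 and 10.04 at 5 ng and rose 6.80-fold (limma adjusted p = 1.94e-11). The cystine transporter SLC7A11, which feeds glutathione synthesis, fell (-1.91, -1.48), as did glutathione reductase GSR (-0.84, -0.45), and haem oxygenase HMOX1 rose (1.13, 1.39).

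Signals and secreted factors changed gene by gene. Among 26 NF-kB targets and chemokines 5 rose and 4 fell, against 4.52% of all genes that rose and 17.1% that fell. The falls were near that share. CCL3, a macrophage chemokine, read 6.01, 6.12, 5.96 and 6.27 at 0 ng and 9.13, 9.21, 9.33 and 9.29 at 5 ng and rose 8.88-fold (limma adjusted p = 2.74e-11). The interleukin IL6 rose (0.76, 1.13), and the neutrophil chemokines CXCL8 (-1.02, -0.72) and CXCL1 (-0.89, -0.69) fell. NRG1, a ligand of ERBB receptors, read 8.07, 8.04, 7.70 and 8.27 at 0 ng and 4.89, 5.36, 5.54 and 5.53 at 5 ng and fell 6.45-fold. The MAPK feedback genes DUSP6 (-0.99, -0.68), ETV5 (-0.98, -0.60) and ETV4 (-0.74, -0.34) fell, while DUSP1 (0.94, 1.26) and SPRY1 (0.76, 1.07) rose, as did the immediate early factors NR4A1 (1.42, 1.69) and EGR1 (0.80, 1.16). ETV4 did not pass with each array centred on its median (-0.47) or when the 8 arrays alone were quantile-normalized (-0.35). Its quantile-normalized difference did not pass either without uninduced array 3 (-0.25) or 4 (-0.34) or induced array 1 (-0.31) or 4 (-0.26).

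In TGF-beta, BMP and related signalling the inhibitor FST (-2.06, -1.69), ID1 (-1.20, -0.79) and the receptor TGFBR2 (-0.96, -0.60) fell, and ID2 (1.64, 1.89), the receptor TGFBR1 (0.83, 1.13) and BMP2 (0.58, 0.94) rose. Of 18 YAP and TEAD genes 3 fell and 1 rose, with a median of -0.15 (0.21). The YAP relative WWTR1 (-1.52, -1.09) and TEAD4 (-1.01, -0.62) were among the falls. Of 34 Notch and Wnt genes 5 fell and 2 rose, with a median of -0.32 (0.01). With 1 array left out, 0 to 2 rose. The Notch ligands DLL1 (-1.06, -0.69) and JAG1 (-0.89, -0.57) and the Notch target HEY1 (-1.15, -0.87) fell. Falls in both lists were a smaller share than the 17.1% of all genes. The IGF binding proteins IGFBP3 (1.70, 2.04), a p53 target, and IGFBP2 (0.99, 1.26) rose.

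The mean signal of 27 interferon-stimulated genes was 7.71, 6.43, 6.64 and 7.15 in replicates 1 to 4 at 0 ng and 7.55, 6.42, 6.79 and 7.02 at 5 ng. Replicate 1 was the highest and replicate 2 the lowest in both groups. Of these interferon-stimulated genes only the RNA sensor TLR3 rose (0.81, 1.15), with overlapping groups, and its deposited difference did not pass without replicate 2 (0.70) or 3 (0.57) of 0 ng or replicate 1 of 5 ng (0.64). In those fits 0 members rose, and without replicate 1 of 0 ng 2 members did.

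Some regulators of cell death changed. Of 18 BCL2 family genes 2 rose and 0 fell, against 4.52% of all genes that rose and 17.1% that fell. BAK1, which acts beside BAX at the mitochondrial membrane, read 8.22, 8.29, 8.21 and 8.31 at 0 ng and 9.20, 9.39, 9.19 and 9.15 at 5 ng. The groups did not overlap and it rose by 0.98 ± 0.13 (limma adjusted p = 6.32e-06). The survival protein BCL2L1 rose by 0.40 (0.72), but did not pass without uninduced array 2 or 3 or induced array 1, 2 or 3, which left 1 rise in the list (differences from 0.34 to 0.47 over the 8 fits with 1 array left out). Without replicate 4 of 0 ng 3 members rose. Of 25 caspases, adaptors and inhibitors 6 rose and 4 fell, and the falls were near the 17.1% share of all genes. CFLAR, an inhibitor of death receptor signalling, rose (0.83, 1.16), and BIRC5, survivin, which is also a mitotic protein, fell 8.23-fold. The initiator CASP2 (-1.08, -0.67) and the adaptor FADD (-0.83, -0.46) fell.

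Transcripts used to describe senescence went both ways. HMGB2, a chromatin protein lost in senescent cells, fell 19.6-fold along with LMNB1, and MMP3 and CXCL8 were also among the 6 of 22 members that fell. The 3 that rose were GDF15, IGFBP3 and IL6. Of all genes 4.52% rose and 17.1% fell. Among noncoding host genes, MIR17HG, the host of a growth-promoting microRNA cluster, fell (-2.45, -2.15), DLEU2 fell (-2.56, -2.15), and MIR22HG (1.08, 1.41) and TP53TG1 (1.21, 1.47) rose.

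The other induced groups give the levels of some of these genes at 3 ng and at 12 h. TP53I3 stood at 7.96 ± 0.20 at 0 ng and 24 h (mean ± SD of deposited log2 signals, n = 4 arrays), 11.21 ± 0.10 at 5 ng and 12 h and 11.49 ± 0.07 at 5 ng and 24 h, and CDKN1A at 8.62 ± 0.26, 9.86 ± 0.07 and 10.05 ± 0.07. Most of the distance of both genes was thus already present at 12 h. PLK1 stood at 10.11 ± 0.22, 9.19 ± 0.43 and 5.88 ± 0.19 and H2BC14 at 11.34 ± 0.25, 9.44 ± 0.43 and 6.25 ± 0.38, so that most of their distance lay between the 12 h and the 24 h arrays. CRYAB stood at 3.77 ± 0.60, 8.96 ± 0.29 and 10.32 ± 0.23. At 3 ng and 24 h PLK1 was at 7.36 ± 0.24, CRYAB at 8.67 ± 0.16 and CDKN1A at 9.34 ± 0.16. These are levels without a test, and no uninduced arrays at 12 h are analysed here.

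**Figure D5:**
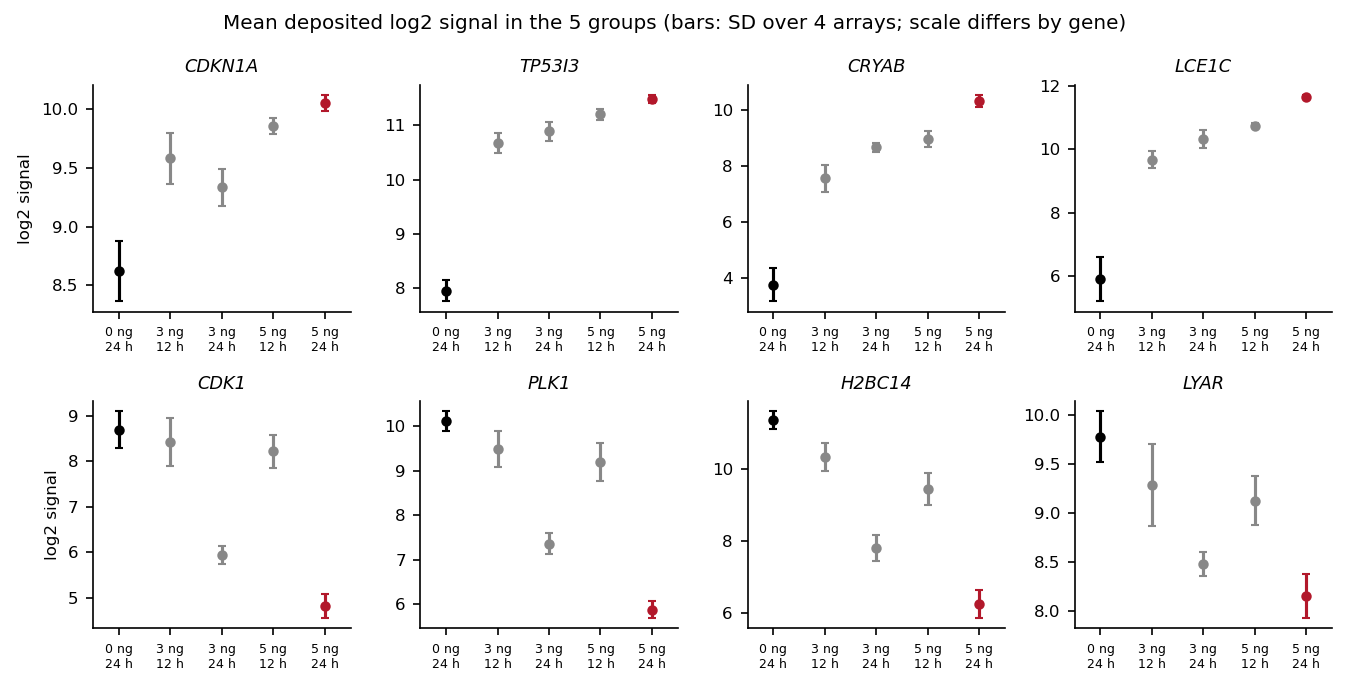
Mean deposited log2 signal of 8 genes in the 5 groups of 4 arrays, with bars for the SD; the y axis differs by gene. CDKN1A and TP53I3 at 5 ng are near their 24 h level at 12 h (9.86 and 11.21), whereas CDK1, PLK1 and H2BC14 at 12 h are nearer to the uninduced level.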

How the data were processed

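RNA from 20 samples was hybridised to 1 array each, 4 arrays in each of 5 groups. The authors deposited log2 signals per transcript cluster. The submitters' processing notes name GCOS, GCRMA, Affymetrix Power Tools and limma, without versions, roles or order, and the sources used here do not state the scaling between arrays. The labels give the groups. Of 33297 clusters, 19460 had exactly 1 symbol in the platform annotation, 1754 had several and 12083 had none listed. The brightest cluster stood for each of 18417 genes, 769 of which had more than 1. No pair of arrays shared most of its values.

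Differences were tested with limma 3.58.1 in R 4.3.3 (lmFit and eBayes, 1 mean per group, all 20 arrays, 15 residual degrees of freedom) with Benjamini-Hochberg adjustment over all genes, on the deposited values and again after quantile normalization, and the procedure was tested on simulated data. A fold is 2 raised to the log2 difference. The number of arrays limits the precision, and the median SE of a difference was 0.193 as deposited and 0.117 after quantile normalization.

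The 64 gene lists, with 1557 of 1703 entries measured, and the comparison itself were chosen with earlier results of these data known. Genes named are a panel of p53 and cell cycle genes, the 20 largest rises and falls that passed on both scales without overlap, up to 6 members of each list in each direction that passed on both scales, up to 2 that passed on 1 scale alone, up to 2 with the smallest quantile-normalized differences, and the cell type markers. From these the text gives those that describe each list best. Promoter windows and chromosome positions are RefSeq's for GRCh38.p14, 1 window for each gene (the first listed), and 3738 of 14237 genes had several. Alternatives were other scalings, fits of the 8 arrays alone, a replicate block, a filter on dim genes, mean clusters, other eBayes options, array weights and the omission of each array. The calls on both scales, and their repeats, were chosen after seeing the data.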

Additional observations from a re-analysis of the deposited data

Results flagged for a closer look

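Of 78 groups of 4 arrays examined for an array far from the other 3 (38 genes and the array medians, in both groups), 3 stood out, and chance gives about 1 in 20. APAF1 read 9.35 in replicate 4 of 5 ng, against 9.19, 9.19 and 9.20 in the other induced arrays. EPCAM read 10.71 in the same array, against 10.18, 10.18 and 10.25. KRT5 read 12.00 in replicate 4 of 0 ng, against 11.64, 11.64 and 11.70. Replicate 4 had the highest array median of each group, 5.28 at 0 ng and 4.99 at 5 ng. The part of array brightness in these values was not tested.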

How the results depend on the processing

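The scaling between arrays moved the counts of calls most. Rises numbered 833 as deposited, 3786 after quantile normalization, 2172 with each array centred on its median, 3279 after quantile normalization of the 8 arrays alone and 1271 with array weights, in which replicate 4 of 0 ng had the lowest weight (0.381). Falls numbered 4333 as deposited, 3172 after quantile normalization, 2730 with centred arrays, 2804 after quantile normalization of the 8 arrays alone and 5383 with array weights. With only the 8 arrays in the fit the counts were 825 and 4457. Leaving out 1 array gave 678 to 889 rises and 3067 to 4635 falls, and on both scales 678 to 889 rises and 2713 to 3118 falls. The cause of these shifts was not tested.

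The fit with a replicate block gave 848 rises and 4550 falls, and on both scales 848 and 3342. Deviations of arrays with the same number correlated at 0.005, 0.073, 0.087 and 0.037 as deposited, and at 0.063, 0.049, 0.064 and 0.103 after quantile normalization. Not every array correlated best with its own number on either scale, and the numbers were not taken to pair the arrays. Interferon-stimulated genes, described below, were however highest in replicate 1 of every group, so some structure may be shared by number.

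The sign of the difference turned between the 2 scales for 11 named genes. Of these, 6 passed on neither scale and 5 passed on 1 of them. After quantile normalization BBC3 was at 0.30, FZR1 at 0.25, RAD51C at 0.22, TOP2B at 0.29 and LMNA at 0.028, and LMNA was at 0.03 when only the 8 arrays were normalized. Of 200 named genes that passed on both scales, 4 lost their call with centred arrays (ATF4, ETV4, MYC and SNAI2), 4 with quantile normalization of the 8 arrays alone (ETV4, RPL32, SNAI2 and TWIST2) and 1 in the fit of the 8 arrays as deposited (TLR3), and 0 under the replicate block, array weights, mean clusters, the other eBayes options or the filter on dim genes, where it kept the gene. Leaving out 1 array ended the deposited call of BCL2L1, H2BC12, MDM2 or TLR3 and the quantile-normalized call of ASNS, ATG5, ETV4, RPL32 or TWIST2. Signal over background is unknown, which limits the folds of dim genes.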

Other observations

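The mean signal of the 27 interferon-stimulated genes was highest in replicate 1 of all 5 groups, also in those not compared above. After quantile normalization it was 7.45 in replicate 1 of 0 ng at 24 h against 6.37 to 6.68 in the other 3 arrays, and 7.70 against 6.68 to 7.02 at 5 ng and 24 h. It was 7.59 against 6.48 to 6.78 at 3 ng and 24 h, 7.19 against 6.34 to 6.52 at 3 ng and 12 h, and 7.21 against 6.47 to 6.68 at 5 ng and 12 h. As deposited, replicate 1 was also the highest in each group. The labels do not say what the replicate number stands for.

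Collagen-modifying and metabolic genes not described above went both ways at 5 ng and 24 h. The lysyl oxidase LOX rose (0.84, 1.10, deposited and quantile-normalized log2 differences), as did the collagen hydroxylase P4HA2 (1.08, 1.40), while LOXL3 (-1.63, -1.23) and LOXL2 (-0.99, -0.59) fell. Among hypoxia targets NDRG1 rose (0.88, 1.18) and the secreted factor STC2 fell (-1.25, -0.84). The regulatory glycolytic enzyme PFKFB4 rose (0.81, 1.11), and RPIA of the pentose phosphate pathway fell (-0.71, -0.32).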
